A study of Homo sapiens with 6 samples.

Results

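Annexins are cytosolic proteins that dock on membranes when calcium rises. This section follows 8 annexin genes, ANXA1, ANXA2, ANXA3, ANXA4, ANXA5, ANXA6, ANXA7 and ANXA11, in RNA libraries of the human acute myeloid leukaemia line HL-60. Their rows were taken by gene symbol from files that list 43424 symbols, and they are 8 of the 13 annexin genes in those files. The 8 were chosen by family name, in a list drawn up after the levels and the group difference in these same counts were known, so their values are given as a description and no p-value is attached to them. The list has no stated threshold. ANXA3, with 12 counts over all libraries, is on it, and ANXA9, with 29, is not. Enough reads for a fit were present for 7 of the 8, and ANXA3 fell below the filter on low counts.

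The libraries come from cells kept for 6 months with CIP, which stands for Corydalis incisa (Thunb.) Pers., a plant, or with DMSO, a common solvent. CIP began at 2 µg/ml and ended at 20 µg/ml, and the outcome is described as CIP-resistant cells. All cells carry the label wild type, and each group holds 3 libraries. The labels do not say whether the replicates were separate cultures, or whether the resistant cells are 1 clone, so the spread between libraries may be technical. QuantSeq, the method used, reads the polyadenylated end of each transcript, so that a transcript yields about the same number of reads whatever its length. Levels are therefore given in CPM (read counts as a rate per library total, scaled between libraries) and are set side by side between genes without division by length.

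The annexin core is built from repeats that hold calcium in a loop with the residues glycine, any residue, glycine and threonine. Bound calcium bridges the protein to acidic lipids such as phosphatidylserine, which lets annexins patch torn membranes, join vesicles and act in endocytosis and exocytosis. The head in front of the core differs between members and carries the binding sites for partners, among them S100 proteins. Myeloid cells are known for abundant annexins, and ANXA2 on leukaemic promyelocytes is known for its part in the bleeding of that disease.

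The loop is what makes these genes a family, so the first stretch of each coding sequence that encodes it is shown, read from GENCODE release 29 transcripts (GRCh38). Each stretch has 27 bases, 5′ to 3′ on the coding strand, and capitals mark the codons for glycine, any residue, glycine and threonine.
ANXA1: atgaagGGCCTTGGAACTgatgaagat
ANXA2: atgaagGGGCTGGGAACCgacgaggac
ANXA3: atcagaGGAATTGGAACTgatgagaaa
ANXA4: atgaaaGGGCTCGGCACCgatgaagac
ANXA5: atgaaaGGCTTGGGCACAgatgaggag
ANXA6: atctcgGGCATTGGCACTgatgagaag
ANXA7: atgaagGGTTTTGGGACAgatgagcag
ANXA11: atgaaaGGCTTCGGGACGgatgagcag

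All 8 stretches run across an exon junction. They lie at chr9:73160371-73160823 (plus strand) in ANXA1, chr15:60357216-60360946 (minus) in ANXA2, chr4:78573255-78579040 (plus) in ANXA3 and chr2:69788129-69804546 (plus) in ANXA4. In ANXA5 the interval is chr4:121684758-121686300 (minus), in ANXA6 chr5:151137301-151138683 (minus), in ANXA7 chr10:73387770-73388324 (minus) and in ANXA11 chr10:80166971-80167238 (minus). Loops of this strict form, with an acidic residue straight after the threonine, numbered 1 in ANXA1 and ANXA2, 2 in ANXA3, ANXA5, ANXA7 and ANXA11, 3 in ANXA4 and 4 in ANXA6, whose core is duplicated. The codon of the first such glycine was 30 in ANXA5, 31 in ANXA4 and 33 in ANXA3, while it was 200 in ANXA7 and 215 in ANXA11, which have long heads.

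The heads of ANXA2 and ANXA1 are shown because they bind S100A10 and S100A11, both of which were measured too. The first 45 coding bases are given with the start codon in capitals, at chr15:60386031-60386075 (minus strand) and chr9:73158536-73158580 (plus strand), each within 1 exon.
ANXA2: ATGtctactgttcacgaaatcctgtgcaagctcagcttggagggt
ANXA1: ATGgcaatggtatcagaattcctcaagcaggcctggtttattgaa

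The stretch before the start site is shown for the 3 members whose levels, given further on, differ most downward (ANXA2, ANXA6) and most upward (ANXA5). It comes from RefSeq (GRCh38.p14), which held all 8 members, and the first start listed was used. The intervals of 250 bases are chr15:60397987-60398236 for ANXA2, chr5:151157780-151158029 for ANXA6 and chr4:121696981-121697230 for ANXA5, all on the minus strand. Capitals mark matches on either strand to 5 motifs. The GC box was searched as GGGCGG. The letters of the CCAAT box are its name. The TATA box was searched as TATAAA. The E box was searched as CACGTG. The AP-1 site was searched as TGACTCA, and no match overlapped one of another kind in these 3.
ANXA2: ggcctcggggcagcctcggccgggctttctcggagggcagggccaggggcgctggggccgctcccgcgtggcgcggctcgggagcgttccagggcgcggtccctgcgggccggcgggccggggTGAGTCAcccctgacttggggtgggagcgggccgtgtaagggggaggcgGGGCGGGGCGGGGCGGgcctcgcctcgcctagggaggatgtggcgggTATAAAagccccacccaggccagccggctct
ANXA6: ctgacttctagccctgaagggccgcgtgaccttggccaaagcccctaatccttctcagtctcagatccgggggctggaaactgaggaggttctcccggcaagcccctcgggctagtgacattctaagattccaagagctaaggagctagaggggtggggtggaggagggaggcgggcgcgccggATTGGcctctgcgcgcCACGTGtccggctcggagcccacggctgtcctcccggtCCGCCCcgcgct
ANXA5: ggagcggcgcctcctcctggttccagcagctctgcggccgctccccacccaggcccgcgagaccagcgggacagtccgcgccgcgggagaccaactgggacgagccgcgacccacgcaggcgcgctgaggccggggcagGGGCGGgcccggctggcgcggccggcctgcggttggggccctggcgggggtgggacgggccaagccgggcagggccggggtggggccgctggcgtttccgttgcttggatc

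Of the 8 promoters, that of ANXA2 alone held the AP-1 letters, found in 4.2% of 27305 promoters of the same length, together with 3 GC boxes in a row and a TATA box. That of ANXA6 alone held the E box (6.5% of all promoters), and that of ANXA5 held 1 GC box and none of the other 4 motifs. GC boxes were found in 5 of the 8 (42.3% of all), the CCAAT box in 3 (33.0%) and the TATA box in 3 (11.1%), those of ANXA1, ANXA2 and ANXA11. GC content ran from 38.4% in ANXA1, with no CpG, to 78.8% in ANXA5, around a median of 58.0% for all promoters. These matches are letters only, and no binding was measured.

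Library totals were 9314584 to 10868396 counts for CIP and 8143657 to 9759687 for DMSO. Over all genes, 9394 of 12844 tested passed an adjusted p of 0.05 with edgeR, which is 73.1%. They were 34.9% of tested genes on the higher side with the CIP label and 38.2% on the lower side. For 75.5% of tested genes the 3 libraries of one group lay wholly above those of the other. MPO, the myeloperoxidase that HL-60 is known to make in quantity, had 15, 9 and 9 counts under the DMSO label. Under the CIP label it had 77887, 82824 and 84917. So low an MPO level is unlike what is known of HL-60, and its cause was not tested. Groups are therefore called CIP-labelled and DMSO-labelled, and higher and lower refer to the CIP label. Of 6 HL-60 line markers, 3 rose (MPO, MYC, PRTN3) and 3 fell (ELANE, AZU1, CTSG) in the edgeR fit. The 3 that fell averaged 592.1, 44.1 and 654.7 CPM with the DMSO label, against 332.8, 25.2 and 95.4 CPM. MYC and PRTN3 averaged 41.8 and 286.9 CPM with the DMSO label, against 280.1 and 425.8 CPM.

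Among other lineage markers, CD163, MS4A1, FCGR3B, MMP8, CDH5 and 5 of 6 erythroid and megakaryocyte genes had 0 counts in every library. The sixth of these, the megakaryocyte integrin gene ITGA2B, had 30, 21 and 21 counts with CIP and none with DMSO, a level at least 24.9-fold higher against 3 counts over the group (edgeR adjusted p = 1.7e-07). The 6 monocyte and macrophage markers summed to 3.24 to 6.35 CPM with the CIP label and 19.9 to 21.6 CPM with the other, where most of it was CD68, while CD14 had 2 counts in all. The 6 lymphoid markers summed to 3.63 to 4.30 against 80.3 to 99.4 CPM, where most of it was NKG7, with CD3D, CD3E and MS4A1 at 0 in the DMSO-labelled libraries. The 6 neutrophil markers overlapped in sum, at 45.5 to 53.5 against 42.7 to 47.8 CPM, most of it CSF3R, which was not called. Of the other two tested, CXCR2 rose from 4.88 ± 1.73 to 12.1 ± 3.65 CPM, and CAMP fell from 14, 27 and 15 counts to 0 in each library (edgeR adjusted p = 6.3e-05 and 1.7e-06). The 8 epithelial, fibroblast and endothelial markers also overlapped, at 16.5 to 35.7 against 30.4 to 77.4 CPM, with the highest sum in DMSO replicate 1, and none of the 5 tested was called. The part of such cells in the annexin values was not tested, and in bulk RNA fewer cells of a type and less RNA per cell cannot be told apart.

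The annexins did not move as a block. ANXA2 nearly vanished with the CIP label, ANXA6 and ANXA4 were lower, ANXA5, ANXA1 and ANXA7 were higher, and ANXA11 differed by less than the fit could separate. In the fit over all genes 3 of the 7 tested members were called higher (ANXA1, ANXA5, ANXA7), 3 were called lower (ANXA2, ANXA4, ANXA6) and 1 was not called (ANXA11). The groups did not overlap for 5 of the 7, ANXA7 and ANXA11 being the exceptions. Because the members were listed with this difference known, nothing is read from these counts against the 73.1% and 75.5% of all tested genes. The median log2 fold change was 0.115 over the 7 and -0.03 over all tested genes.

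**Figure D1:**
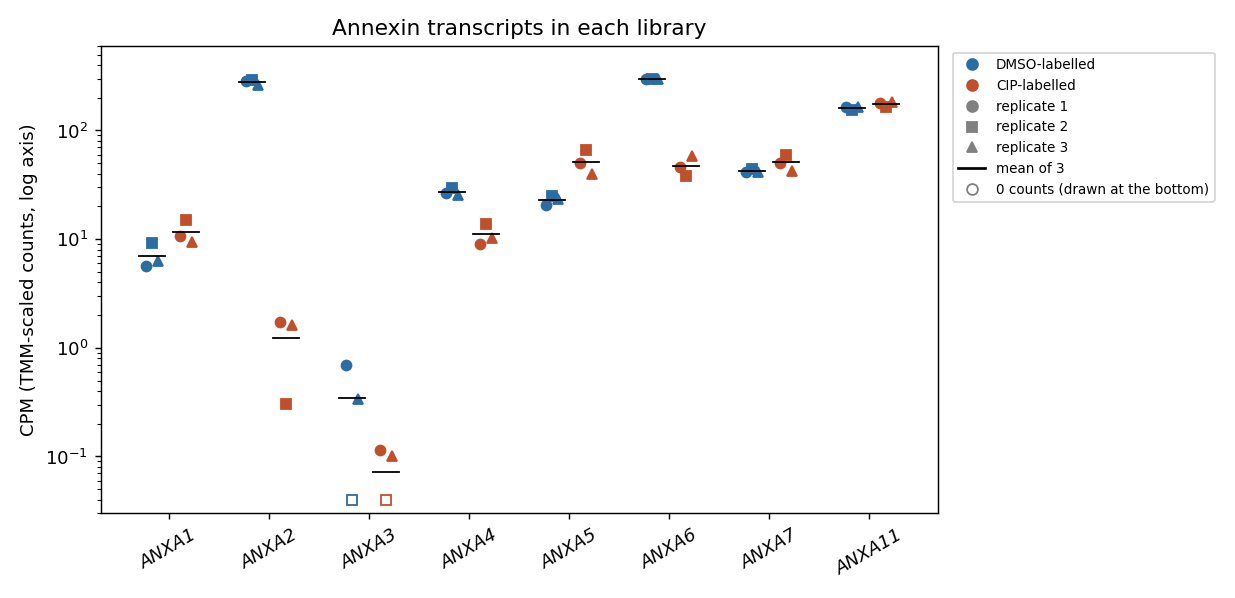
Level of each annexin transcript in CPM on a log axis, 1 symbol per library (blue DMSO-labelled, red-orange CIP-labelled, shape for the replicate), with the mean of 3 libraries as a bar and 0 counts drawn as open symbols at the bottom. ANXA2 sits at 262.9 to 293.4 CPM in the DMSO-labelled libraries and at 0.307 to 1.73 CPM in the CIP-labelled ones, while ANXA11 overlaps.

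ANXA2 (chromosome 15, 60347151 to 60397986, minus strand, 14 exons in the transcript used, gene positions here and below from RefSeq GRCh38.p14) pairs with S100A10 in a complex that binds plasminogen and its activator at the cell surface. It had 2903, 3060 and 2325 counts in DMSO replicates 1 to 3 and 15, 3 and 16 in CIP replicates 1 to 3. In CPM these are 287.5, 293.4 and 262.9 against 1.73, 0.307 and 1.61. Every DMSO-labelled library was far above every CIP-labelled one, and CIP replicate 2 was the lowest of all. The means were 281.3 ± 16.2 (SD, n = 3) and 1.22 ± 0.791 CPM (SD, n = 3). The log2 fold change was -7.86 ± 0.16 (SE), with a 95% interval of -8.19 to -7.52, which makes the DMSO level 232 times the CIP level. DESeq2 and limma-voom gave larger SEs, 0.46 and 0.45. With so few CIP-labelled counts, the SE of 0.16 and its interval may be too narrow. A log2 change at least as large was found for 3.15% of tested genes.

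The low counts of ANXA2 in the CIP-labelled libraries were above 0 in each. Exact 95% Poisson intervals, which cover counting error only, were 8.4 to 24.7 counts for the 15 of replicate 1 and 9.1 to 26.0 for the 16 of replicate 3, against 0.62 to 8.8 for the 3 of replicate 2. Without CIP replicate 2 the log2 fold change of ANXA2 was -7.37, outside the 95% interval of the main fit. Leaving out any 1 DMSO-labelled library gave -7.92 to -7.84. The pseudogenes ANXA2P1, ANXA2P2 and ANXA2P3 held 2, 4 and 8 counts over all libraries. ANXA2R, named as an annexin A2 receptor, stood at 5.02 ± 0.519 against 6.16 ± 1.62 CPM (edgeR adjusted p = 0.37).

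The transcripts closest in pattern to ANXA2, by root-mean-square distance of centred log2 CPM over the 6 libraries, were IL32 (0.34), a cytokine gene, and TBXA2R (0.34), the thromboxane receptor. They averaged 0.250 and 1.22 CPM with the CIP label against 184.8 and 239.7 CPM. With only 2 groups, this distance mostly reads the size of the group difference.

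ANXA6 (chromosome 5, 151100706 to 151157779, minus strand, 26 exons) is the double-length annexin, a scaffold at late endosomes and the plasma membrane. Replicates 1 to 3 gave 3034, 3130 and 2615 counts for DMSO against 398, 372 and 575 for CIP. It was the steadiest member in the DMSO-labelled libraries, at 300.5, 300.1 and 295.7 CPM, and spread more in the CIP-labelled ones, at 46.0, 38.1 and 58.0 CPM. No CIP-labelled library came near the DMSO range. The log2 fold change was -2.66 ± 0.10 (SE, 95% interval -2.87 to -2.44), a DMSO level 6.3 times the CIP level. LMO7 and SELENOW had the closest patterns to ANXA6, at distances of 0.035 and 0.0379.

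ANXA4 (chromosome 2, 69643808 to 69827112, plus strand) is known from secretory epithelia and for shielding damaged membranes. It was the third member that was lower with the CIP label. Its levels were 26.6, 29.7 and 25.5 CPM in the DMSO-labelled libraries against 9.02, 13.9 and 10.3 CPM, with no overlap. The log2 fold change was -1.30 ± 0.17 (SE, 95% interval -1.63 to -0.96). ANXA4 overlaps SMANTIS, a noncoding gene, and 2 uncharacterised loci, which together had 0 counts in the CIP-labelled libraries and at most 4 counts each in any DMSO-labelled one. ADAMTS14 and SNRK had the closest patterns, at distances of 0.0739 and 0.0838. SNRK, at 15.9 CPM with the CIP label against 38.4 CPM, had a log2 fold change of -1.26. ADAMTS14 had few reads, at 0.591 against 2.13 CPM, and a larger log2 fold change of -1.82. The 0.5 CPM added before the log for this distance shrinks the change of so low a gene.

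ANXA5 (chromosome 4, 121667946 to 121696980, minus strand) binds phosphatidylserine and is the protein used to stain dying cells. It was the member with the largest change to the higher side. Its levels were 49.95, 65.64 and 39.74 CPM in CIP replicates 1 to 3 and 20.7, 24.9 and 23.3 CPM in DMSO replicates 1 to 3. The lowest CIP-labelled library was above the highest DMSO-labelled one. The log2 fold change was 1.17 ± 0.14 (SE, 95% interval 0.87 to 1.47), or 2.25 times. MSI2, an RNA-binding protein of stem cells, and C17orf80 were closest in pattern, at distances of 0.0844 and 0.0965.

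ANXA1 (chromosome 9, 73151865 to 73170393, plus strand) is induced by glucocorticoids and restrains inflammation through a formyl peptide receptor. Its levels were low under both labels, with 92, 147 and 94 counts for CIP against 57, 96 and 56 for DMSO. That gives 10.6, 15.1 and 9.48 against 5.65, 9.21 and 6.33 CPM. The groups did not overlap but nearly touched, CIP replicate 3 lying just above DMSO replicate 2, and replicate 2 was the highest in both. The log2 fold change was 0.73 ± 0.24 (SE, 95% interval 0.24 to 1.21). ANXA1 was no longer called without CIP replicate 2 (log2 fold change 0.51), without DMSO replicate 1 (0.58) or with library totals in place of scaled totals (0.50).

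ANXA7 (chromosome 10, 73375101 to 73414058, minus strand), known as synexin, brings secretory granules together. ANXA11 (chromosome 10, 80150889 to 80205808, minus strand) tethers RNA granules to lysosomes and is mutated in a motor neuron disease. Both have long heads before the core. ANXA7 stood at 50.3, 59.8 and 42.6 CPM for CIP against 41.9, 44.3 and 41.2 CPM for DMSO, with overlap. Its log2 fold change of 0.26 ± 0.11 (SE, 95% interval 0.03 to 0.49) passed narrowly, and the call was lost under 8 of 14 other settings. ANXA7 had a log2 fold change of 0.14 without CIP replicate 2 and of 0.03 with library totals alone.

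ANXA11 stood at 179.7, 163.9 and 183.8 CPM with the CIP label and at 165.6, 155.9 and 165.5 CPM with the DMSO label. CIP replicate 2 lay within the DMSO range and the other two above it. The log2 fold change was 0.12 ± 0.07 (SE), with a 95% interval of -0.03 to 0.26. With library totals alone the value turned to -0.12, and without CIP replicate 2 ANXA11 was called at 0.17.

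ANXA3 (chromosome 4, 78551770 to 78610447, plus strand), known from neutrophils, was close to absent. CIP replicates 1 to 3 had 1, 0 and 1 counts, and DMSO replicates 1 to 3 had 7, 0 and 3. Over the groups the DMSO level was 4.82 times the CIP level, with an exact 95% interval of 1.03 to 45.3 for counting error alone. Since 1 DMSO-labelled library also had 0 counts, the groups overlap. The 5 annexin genes outside the list were also rare. ANXA9 held 18 counts over the CIP-labelled and 11 over the DMSO-labelled libraries, ANXA8 0 and 7, ANXA8L1 2 and 2, ANXA10 0 and 1, and ANXA13 none. ANXA8 and ANXA8L1 are uncertain, since 88.9% of the 50-base words at their ends are shared.

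**Figure D2:**
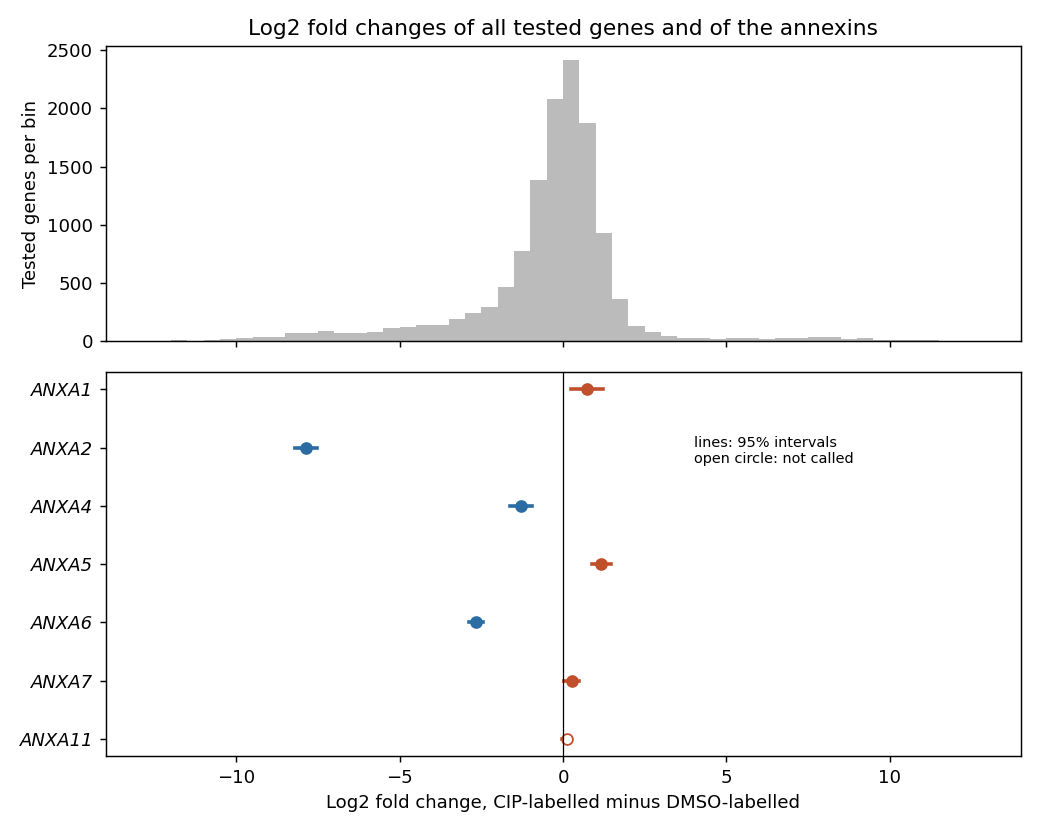
Upper panel, number of the 12844 tested genes in each bin of log2 fold change (CIP-labelled minus DMSO-labelled). Lower panel, the log2 fold change of each tested annexin with its 95% interval, filled where called. ANXA2 at -7.86 lies in the sparse left tail, and the other members lie between -2.66 and 1.17.

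The order of the annexins differed between the groups. In the DMSO-labelled libraries ANXA6 led, followed by ANXA2, ANXA11, ANXA7, ANXA4, ANXA5, ANXA1 and ANXA3, and the ranges of no pair of neighbours overlapped. In the CIP-labelled libraries ANXA11 led alone. ANXA5, ANXA7 and ANXA6 followed at 51.8, 50.9 and 47.4 CPM with overlapping ranges, then ANXA1 and ANXA4 at 11.7 and 11.1 CPM, which overlapped too. ANXA2 and ANXA3 came last.

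As shares of the summed annexin counts of a library, which do not depend on scaling between libraries, ANXA11 took 46.0% to 53.2% with the CIP label and 18.2% to 20.2% with the DMSO label. ANXA2 took 0.0861% to 0.499% against 32.0% to 34.2%, and ANXA6 took 13.6% ± 3.07 against 35.5% ± 0.525 (mean ± SD, n = 3). These 3 genes held most of the annexin reads under the DMSO label, while ANXA2 added next to nothing under the CIP label. ANXA5 took 11.5% to 18.4% against 2.44% to 2.91% and ANXA7 took 12.3% to 16.8% against 4.93% to 5.17%. ANXA4, at 2.60% to 3.90% against 3.10% to 3.47%, overlapped in share although its level was lower. The sum of the 8 was 349.9 ± 5.99 CPM (SD, n = 3) with the CIP label and 842.5 ± 19.4 CPM (SD, n = 3) with the DMSO label. Without ANXA2 and ANXA6 it was 301.3 ± 16.3 and 262.4 ± 1.5 CPM.

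**Figure D3:**
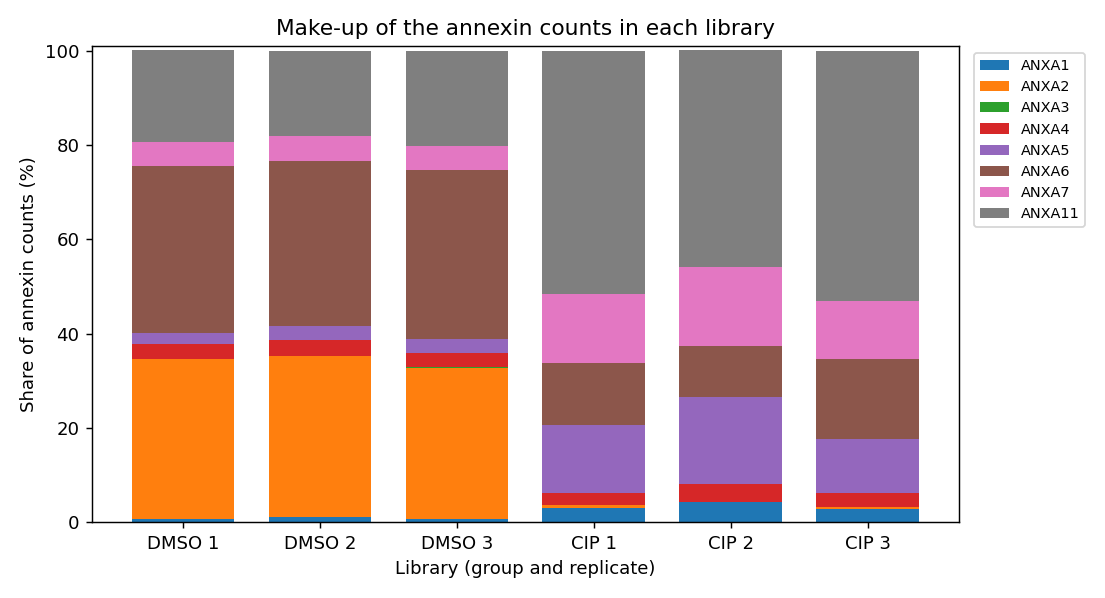
Share of the summed counts of the 8 annexins taken by each, in percent, for each library. ANXA2 and ANXA6 fill most of the bar in the 3 DMSO-labelled libraries, and ANXA11 fills 46.0% to 53.2% in the 3 CIP-labelled ones.

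The CIP-labelled replicates had the larger relative spread for 6 of the 7 tested members, ANXA1 being the exception, with no test made. The coefficient of variation was 21.2% for ANXA6, 25.2% for ANXA5 and 23.0% for ANXA4 for CIP, against 0.886%, 9.29% and 8.10% for DMSO. CIP replicate 2 was at least 1.3 times both other CIP-labelled libraries for ANXA1, ANXA4 and ANXA5 and lower by that factor for ANXA2, a look taken after the values were seen. Such a rise was found for 9.10% of tested genes and such a drop for 11.2%.

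The proteins that bind annexins directly were read from a list of 6 calcium-binding partners. Of these, 5 fell with the CIP label and 1 rose in the edgeR fit, so that 100% were called, against 73.1% of all tested genes. This list and those below were also chosen with earlier results of these data known. Nothing is read from their called shares against that of all genes. The median log2 fold change of the 6 was -1.885. S100A10, which joins ANXA2, fell from 38.6 ± 3.74 to 10.0 ± 2.29 CPM (log2 fold change -1.95 ± 0.16, edgeR adjusted p = 3.4e-13). Its libraries stood at 39.5, 41.8 and 34.5 CPM in the DMSO-labelled group and at 12.3, 7.68 and 10.2 CPM in the CIP-labelled one, so that CIP replicate 2 was lowest for both partners of the complex. In counts, ANXA2 exceeded S100A10 by 7.02 to 7.62 times in each DMSO-labelled library and was 0.04 to 0.158 of it in each CIP-labelled one.

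S100A11, the partner of ANXA1, fell from 241.7 ± 11.9 to 41.5 ± 2.31 CPM (log2 fold change -2.54 ± 0.08, edgeR adjusted p = 6.7e-25), against the direction of ANXA1. The ratio of ANXA1 to S100A11 counts was 0.224 to 0.348 for CIP and 0.0226 to 0.0404 for DMSO. S100A6, which binds several annexins, fell from 521.1 ± 16.3 to 18.7 ± 4.54 CPM, and S100A4, a further ANXA2 partner, from 372.1 ± 7.7 to 105.4 ± 8.98 CPM (adjusted p = 2e-21 and 6.5e-22). Sorcin (SRI), a partner of ANXA7, fell by 0.50 on the log2 scale. PDCD6, which binds ANXA7 and ANXA11, rose from 108.1 ± 11.3 to 136.4 ± 3.96 CPM (edgeR adjusted p = 0.00026), but was not called with library totals alone.

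The formyl peptide receptors, through which ANXA1 signals, were barely read. FPR2 had 14, 11 and 4 counts in the DMSO-labelled libraries and 0 in each CIP-labelled one, a level at least 9.32-fold lower against 3 counts over the group. FPR1 had 2 counts over the CIP-labelled and 3 over the DMSO-labelled libraries, and FPR3 had none.

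Of the 7 tested genes of the plasminogen system that ANXA2 and S100A10 serve, 2 rose, 2 fell and 3 did not pass, which is 57.1% called against 73.1% of all tested genes. Their median log2 fold change was -0.141. SERPINB2, an inhibitor of plasminogen activators, fell from 20.8 ± 1.54 to 1.22 ± 0.707 CPM (log2 fold change -4.10 ± 0.29, edgeR adjusted p = 1.1e-14). The activator gene PLAU stood at 23.3 ± 1.79 against 18.6 ± 1.23 CPM (adjusted p = 0.045). ENO1, an enzyme that also binds plasminogen at the surface, stood at 2443 ± 65.8 against 2089 ± 84.3 CPM (adjusted p = 0.00085). The receptor genes PLAUR and PLGRKT did not pass, and PLG itself had no counts. The 2 higher calls of this list became 1 with RLE or upper-quartile scaling, without the filter, with DESeq2 and with the replicate block. They became 0 with library totals alone. Leaving out 1 library gave 1 as well, apart from CIP replicate 3, without which 3 were called higher.

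Of 11 tested membrane repair genes, 5 fell, 3 rose and 3 did not pass, which is 72.7% called against 73.1% of all tested genes. Dysferlin (DYSF), which works with annexins at torn membranes, had 142, 142 and 144 counts in the DMSO-labelled libraries and 1 in each CIP-labelled one, a ratio of 138 (exact 95% interval 46.8 to 670). CAPN2, a calcium-activated protease, fell from 33.03 ± 4.75 to 0.531 ± 0.0406 CPM and AHNAK, a scaffold bound by the ANXA2 complex, from 149.2 ± 2.54 to 21.3 ± 2.33 CPM (edgeR adjusted p = 2.5e-20 and 5.8e-24). CAPN1, the sister protease of CAPN2, stood at 35.5 ± 5.01 against 34.8 ± 1.56 CPM and was not called. VPS4B, the ATPase that ends ESCRT-driven repair, rose from 50.6 ± 1.51 to 127.8 ± 12.4 CPM (adjusted p = 8.1e-16), as did VPS4A and CHMP4A. CHMP4B went the other way, from 104.4 ± 4.63 to 86.2 ± 3.48 CPM (edgeR adjusted p = 0.0022), and PDCD6IP was not called.

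**Figure D4:**
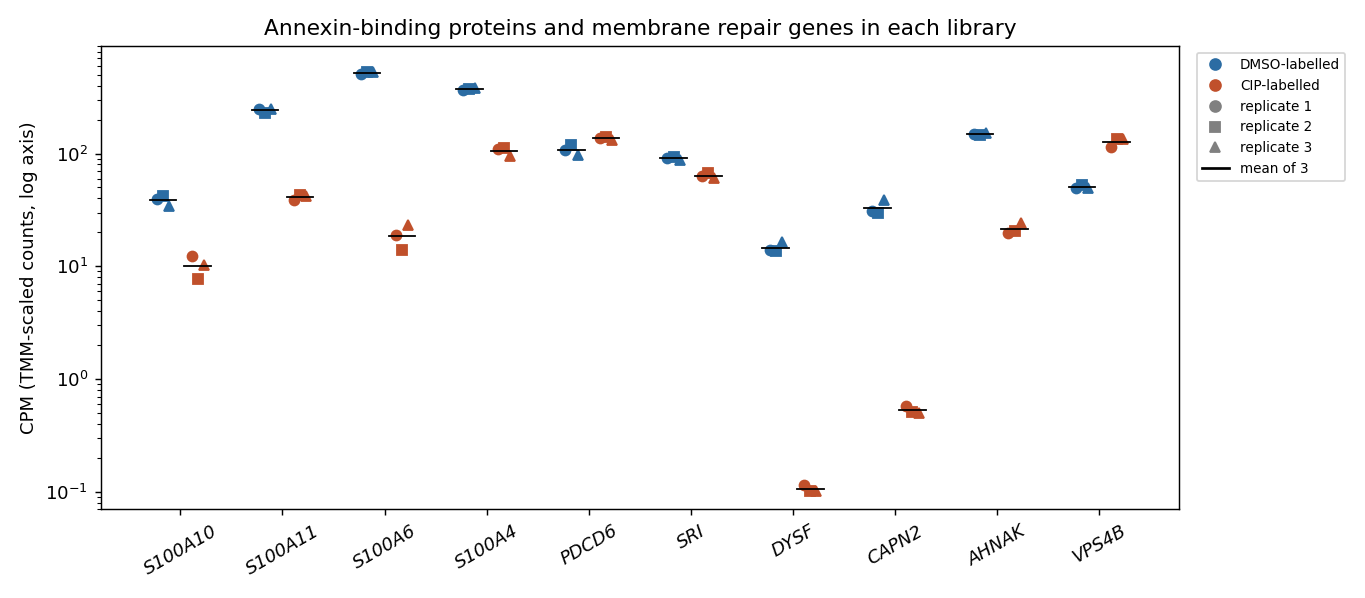
Levels in CPM on a log axis of the 6 annexin-binding partners and 4 membrane repair genes, 1 symbol per library, with the mean of 3 as a bar. All 4 S100 genes, SRI, DYSF, CAPN2 and AHNAK are lower in the 3 CIP-labelled libraries, and PDCD6 and VPS4B are higher.

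Genes that expose or hide phosphatidylserine, the lipid that ANXA5 binds, split evenly, with 3 of 8 tested genes higher, 3 lower and 2 not past the test (75% called, against 73.1% of all tested genes). The scramblase gene XKR8, active in dying cells, fell from 6.46 ± 0.305 to 1.27 ± 0.797 CPM (edgeR adjusted p = 3.5e-06), while PLSCR1 rose from 5.49 ± 0.191 to 12.4 ± 2.28 CPM (adjusted p = 3.2e-05). Among flippases ATP8B4 fell from 126.5 ± 9.27 to 42.0 ± 0.958 CPM and ATP11B rose from 20.9 ± 3.69 to 36.7 ± 2.4 CPM (adjusted p = 6.6e-18 and 2e-06).

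Annexins were once named lipocortins for their inhibition of phospholipase A2, which releases arachidonic acid. Of 9 tested genes of that enzyme and the eicosanoid pathway, 5 fell, 3 rose and 1 did not pass, which is 88.9% called against 73.1% of all tested genes. Their median log2 fold change was -0.690. PLA2G4A, the cytosolic phospholipase, fell from 11.3 ± 1.56 to 3.73 ± 1.28 CPM and the cyclooxygenase gene PTGS1 from 44.4 ± 1.6 to 17.5 ± 2.98 CPM (edgeR adjusted p = 3e-06 and 4.8e-11). The prostaglandin synthase gene PTGES2 rose from 13.1 ± 0.534 to 42.4 ± 2.53 CPM and PTGES3 from 256.4 ± 5.17 to 540.6 ± 17.7 CPM (adjusted p = 1.7e-13 and 4.8e-17).

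Because ANXA1 is a glucocorticoid-induced gene, the receptor and other induced genes were read as well. Of 6 tested, 1 rose, 2 fell and 3 did not pass, which is 50% called against 73.1% of all tested genes. The receptor NR3C1 stood at 49.8 ± 3.17 against 53.9 ± 3.93 CPM (edgeR adjusted p = 0.30). TSC22D3 and FKBP5, both steroid-induced, fell from 112.6 ± 5.26 to 17.7 ± 4.03 CPM and from 431.3 ± 4.98 to 126.3 ± 6.86 CPM (adjusted p = 4.4e-20 and 2.4e-22). ZBTB16 rose from 14.7 ± 2.71 to 220.0 ± 7.72 CPM (adjusted p = 1.9e-27).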

How the data were processed

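The authors deposited 1 file per library with whole-number read counts by gene symbol, and the values show no sign of normalization. The kit was QuantSeq by Lexogen, on total RNA, as the labels' protocols say. Fastp, STAR, HTSeq, bcl2fastq (2.20.0.422) and the build GRCh38 are listed in the submitters' processing notes, and no source used here gives the strand setting or annotation release, so reads of overlapping genes cannot be separated.

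Genes were tested with edgeR 4.0.16 in R 4.3.3 (quasi-likelihood, robust, 2-sided) after filterByExpr and TMM scaling (factors 0.914 to 1.09), group alone in the design, with Benjamini-Hochberg adjustment over 12844 genes. Called means an adjusted p below 0.05. Each SE was worked back from the log2 fold change and the test statistic, and the 95% intervals rest on it. CPM are counts over TMM-scaled totals of the genes kept, mean ± SD over 3 libraries. The 3 counts over a group used as a floor equal 0.106 CPM for CIP and 0.102 CPM for DMSO. In a single library 3 counts equal 0.288 to 0.347 CPM. An exact permutation test of 3 against 3 libraries cannot go below p = 0.10, so p-values come from the model. No library was treated as a duplicate, since chi-square per gene between replicates of a group was 3.82 to 7.66.

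The members and lists were chosen with earlier results of these data known. Named genes were all members, the other annexins, the 6 partners, the receptors and, per further list, up to 4 called genes with the largest change at 5 CPM or more; a few others are named beside them after their values were seen. The values of 1 list gene are not reported here. For each member whose own absolute log2 fold change was at least 1, the 2 tested genes of closest pattern were named (log2 of CPM plus 0.5; symbols starting LOC or LINC left out). The steps were tested on simulated data. Alternatives were RLE, upper-quartile and library-total scaling, 2 other filters, DESeq2 1.42.0, limma-voom (limma 3.58.1), the replicate block and each library left out in turn.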

Additional observations from a re-analysis of the deposited data

How the results depend on the processing

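ANXA2, ANXA4, ANXA5 and ANXA6 kept direction and call under all 14 alternatives, at log2 fold changes of -8.16 to -7.37, -1.53 to -1.16, 0.94 to 1.34 and -2.89 to -2.51. ANXA1 kept its direction (0.50 to 0.96) and lost its call in 3 of 14, and ANXA7 (0.03 to 0.39) in 8 of 14. ANXA11 turned to -0.12 with library totals alone. Members called lower numbered 3 in every setting. Members called higher numbered 3 and fell to 2 with RLE or upper-quartile scaling, DESeq2 and limma-voom, and to 1 with library totals alone. Leaving out each library gave 1 to 3, the lowest without DMSO replicate 1. With library totals alone 3452 genes were called higher and 5920 lower, in place of 4482 and 4912, and the median over the tested genes moved from -0.03 to -0.26. ANXA3 could be fitted only without the filter, at -2.06 (edgeR) and -2.28 (DESeq2), not called in either. Of the partner lists, the calcium-binding partners had 0 in place of 1 called higher with library totals alone. The plasminogen list had 0 to 3 called higher and 1 to 3 lower over the alternatives, and 1 formyl peptide receptor was called lower without the filter, with DESeq2 and without any 1 of 4 libraries. The cause of these differences was not tested. Same-numbered libraries of the groups did not deviate together (r = -0.0231, -0.0603 and -0.0388). With 3 libraries per group these values cannot settle whether the numbers pair them. With the replicate block 4306 genes were called higher and 4755 lower, with 3 annexins in each direction. Depth limits ANXA3, the annexins outside the list and the formyl peptide receptors, which are near the floor of 3 counts.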
